A study of Mus musculus with 8 samples.

Results

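Resident Kupffer cells, the macrophages that line the sinusoids of the liver, were followed through 10 genes known as markers of their identity and of macrophages: Clec4f, Timd4, Vsig4, Cd5l, Marco, Cd163, Folr2, Adgre1, Csf1r and Spic. The genes were found by symbol, each matched 1 row of the 22052 genes in the table, and all 10 passed the filter on low values. RNA came from whole livers of male C57BL6 mice aged 8 weeks, 4 per group, all injected with corn oil into the peritoneum. The mice called dKO were Zfp36l1fl/fl/Zfp36l2fl/fl/Alb-Cre, and the controls were Zfp36l1fl/fl/Zfp36l2fl/fl without Cre, so both groups carried the floxed alleles. The albumin promoter drives Cre in hepatocytes, not in macrophages, and the proteins lost there bind AU-rich elements in mRNAs and promote their decay.

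Kupffer cells settle in the liver before birth, renew themselves there and clear bacteria, dying cells and worn red blood cells from portal blood. Their survival rests on signalling through the receptor encoded by Csf1r, and their identity on transcription factors such as LXR-alpha (Nr1h3), ID3 and SPI-C together with Notch, TGF-beta and BMP signals from neighbouring endothelial and stellate cells. Macrophages that derive from monocytes can enter the same niche. They express Adgre1 and Csf1r from the start and gain Clec4f early, whereas Timd4 marks cells that have resided for long.

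Libraries held 15253827 to 19299556 reads assigned to genes. The deposited values are read counts scaled by a single size factor for each library, called normalised read counts here, and changes are dKO minus control on the log2(value + 0.5) scale. Normalised read counts of Zfp36l1 were 209 to 267 in dKO livers and 1182 to 1642 in controls, and those of Zfp36l2 were 696 to 923 in dKO livers and 997 to 1820 in controls, with control 3 the lowest and the other controls at 1722 or more, so neither targeted gene went against a label. Control 4 held the highest control value for 14 of 16 markers of monocytes and recruited macrophages. All 10 Kupffer cell genes, defining markers such as Clec4f and Vsig4 included, were read in every liver, from 18 reads of Spic in control 1 to 5616 reads of Cd5l in dKO 4.

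Among the 10 genes, 5 were higher in dKO livers (Marco, Spic, Csf1r, Cd5l and Adgre1), 1 was lower (Cd163) and 4 passed in neither direction (Clec4f, Timd4, Vsig4 and Folr2), by limma with a Benjamini-Hochberg adjusted p under 0.05 over all genes. Over the 20055 genes tested, 21.2% were higher and 17.0% lower by the same rule. The same 5 genes lay higher in dKO livers with no overlap between the groups, against 19.4% of all tested genes, and Cd163 alone lay lower with no overlap, against 16.9%. The median log2 change of the 10 genes was 0.55, beside 0.03 over all genes tested. In whole-liver RNA, fewer Kupffer cells and less RNA per cell cannot be told apart, nor can resident cells and newcomers that express the same gene.

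Promoter sequences of 4 genes are shown because these genes went different ways: Marco and Cd5l higher, Timd4 low in some dKO livers only, and Cd163 lower. Each is the 250 bases before the RefSeq start on GRCm38.p6, on the strand of the gene. Capitals mark GAGGAA, the core bound by ETS factors of the PU.1 and SPI-C kind, TGGGAA, the core bound by the Notch effector RBPJ, and TGCTGA, a half-site of MAF factors, each searched on both strands; no marked stretches overlap.
Marco, chr1:120505025-120505274, minus strand: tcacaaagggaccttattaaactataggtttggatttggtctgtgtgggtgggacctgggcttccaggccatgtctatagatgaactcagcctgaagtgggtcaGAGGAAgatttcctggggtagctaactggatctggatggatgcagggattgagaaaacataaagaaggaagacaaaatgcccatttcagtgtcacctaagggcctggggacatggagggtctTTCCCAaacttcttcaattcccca
Cd5l, chr3:87357631-87357880, plus strand: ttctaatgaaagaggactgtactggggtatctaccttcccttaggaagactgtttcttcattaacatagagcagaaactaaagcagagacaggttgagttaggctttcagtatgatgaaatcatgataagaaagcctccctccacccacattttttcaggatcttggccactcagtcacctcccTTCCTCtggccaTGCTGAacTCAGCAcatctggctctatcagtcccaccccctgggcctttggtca
Timd4, chr11:46810549-46810798, plus strand: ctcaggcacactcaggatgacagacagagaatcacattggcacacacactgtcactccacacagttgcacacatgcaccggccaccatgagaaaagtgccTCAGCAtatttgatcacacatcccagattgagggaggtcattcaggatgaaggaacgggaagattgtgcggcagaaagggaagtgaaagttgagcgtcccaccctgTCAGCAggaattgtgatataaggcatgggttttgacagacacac
Cd163, chr6:124304401-124304650, plus strand: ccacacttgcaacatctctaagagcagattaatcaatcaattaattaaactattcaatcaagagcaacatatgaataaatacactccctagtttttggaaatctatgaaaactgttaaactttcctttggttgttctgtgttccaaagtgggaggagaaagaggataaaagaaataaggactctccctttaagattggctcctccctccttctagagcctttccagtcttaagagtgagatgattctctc

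Of the 8 genes whose RefSeq promoters were searched (Csf1r and Adgre1 were not), 3 held GAGGAA, 2 held TGGGAA and 5 held TGCTGA in this window. Folr2 had 2 promoters and was counted as 1 gene. The shares over all 32851 promoters of the same length, counted by promoter and not by gene, were 23.3%, 21.6% and 16.1%. Marco held GAGGAA 146 to 141 bases and TGGGAA 24 to 19 bases before its start, the second on the opposite strand. Cd5l held GAGGAA on the opposite strand and TGCTGA on both strands within 66 bases of its start, and Timd4 held TGCTGA on the opposite strand at 150 and at 44 bases. The Cd163 window held none of the 3, which says only that these letters were not in it. TATTTAT, a core sequence recognised by proteins of the ZFP36 family, stood in the annotated 3′ untranslated regions (GENCODE M21) of 0 of the 10 genes and of 30.1% of 15415 tested protein-coding genes. The longest annotated region ranged over the 10 genes between 121 bases for Marco and 1669 bases for Csf1r.

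**Figure D1:**
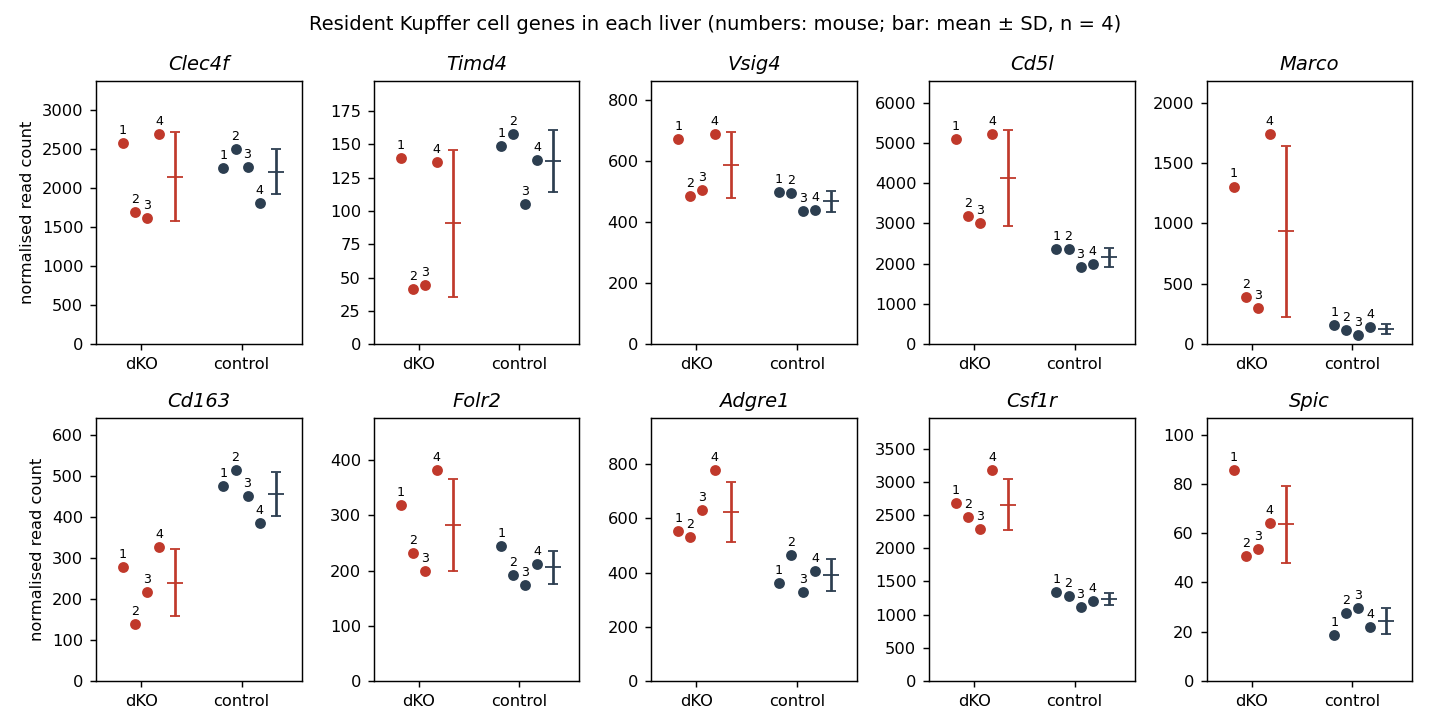
Normalised read counts (y axis, from 0) of the 10 Kupffer cell genes in each dKO and control liver, with the mouse number beside each point and the mean ± SD of 4 livers as a bar. Marco, Cd5l, Adgre1, Csf1r and Spic lay higher in all dKO livers than in all controls, Cd163 lay lower, and dKO 1 and dKO 4 held the highest values of the dKO livers for 9 of the 10 genes.

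The scavenger receptors and their relatives were taken first. Marco, a class A scavenger receptor that binds bacteria (mm10 chr1:120474538-120505024, minus strand), had 1306, 391, 297 and 1744 normalised read counts in dKO livers 1 to 4, against 162, 116, 72.6 and 146 in controls 1 to 4. Every dKO liver stood above every control, and dKO 1 and dKO 4 stood far above the other dKO livers. The mean was 935 ± 706 in dKO livers and 124 ± 39.5 in controls (SD, n = 4 each), a log2 change of 2.59 (SE 0.48, limma adjusted p = 0.001), with a 95% interval of 2.91-fold to 12.4-fold. This was the highest log2 change of the 10 genes, and the highest dKO liver held 5.87 times the lowest, the widest range among them.

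Cd5l encodes a secreted scavenger-receptor cysteine-rich protein, an inhibitor of macrophage apoptosis and a target of LXR (mm10 chr3:87357881-87371073, plus strand). Its values were 5089, 3186, 3015 and 5229 in dKO livers and 2359, 2376, 1929 and 1985 in controls. All dKO values were above all control values, again with dKO 1 and dKO 4 on top. Means were 4129.7 ± 1192 in dKO livers and 2162 ± 238 in controls (SD, n = 4 each; log2 change 0.89, SE 0.17, limma adjusted p = 0.00114).

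Cd163, the receptor that clears complexes of haemoglobin and haptoglobin (mm10 chr6:124304656-124330527, plus strand), went the other way. It had 278, 138, 216 and 327 normalised read counts in dKO livers and 475, 513, 450.2 and 384 in controls. No dKO liver reached the lowest control, and dKO 2 was the lowest of all. The means were 239.6 ± 81.6 in dKO livers and 456 ± 54.2 in controls (SD, n = 4 each), a log2 change of -0.99 (SE 0.21, limma adjusted p = 0.00283), or 0.504-fold with a 95% interval of 0.365 to 0.696.

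Receptors for dying cells and complement-coated particles followed. Timd4 encodes TIM-4, which binds phosphatidylserine on apoptotic cells (mm10 chr11:46810800-46844332, plus strand). It had 139.8, 41.6, 44.3 and 137 normalised read counts in dKO livers and 149, 158, 105 and 138 in controls. In dKO 1 and dKO 4 the level lay within the control range, and in dKO 2 and dKO 3 it lay below every control. The log2 change of -0.81 (SE 0.37) did not pass (limma adjusted p = 0.104), with a 95% interval of 0.325-fold to 0.995-fold. It passed without dKO 1 (limma adjusted p = 0.0342), without dKO 4 (0.0385) and with quantile normalization (0.0464), and the values rest on 45 to 154 reads per liver.

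Vsig4 encodes CRIg, a complement receptor that captures particles from the blood. It had 673, 485, 506 and 691 normalised read counts in dKO livers and 500.1, 497, 439 and 439 in controls. The groups overlapped only through dKO 2, which lay below controls 1 and 2. The log2 change was 0.31 (SE 0.12, limma adjusted p = 0.0619), and it passed in 5 of 17 alternative settings, among them edgeR (adjusted p = 0.0427), DESeq2 (0.0482) and the settings without dKO 2 (0.0245) or dKO 3 (0.0374).

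Clec4f, a C-type lectin restricted to Kupffer cells in mice, had 2579, 1689, 1615 and 2694 normalised read counts in dKO livers and 2256, 2493, 2273 and 1810.4 in controls. Livers dKO 1 and dKO 4 lay above all controls, and dKO 2 and dKO 3 below all controls. The mean difference was small (log2 change -0.07, SE 0.16, limma adjusted p = 0.769), with a 95% interval of 0.743-fold to 1.22-fold, and its sign turned with quantile normalization, without dKO 2 and without dKO 3. Folr2, the beta folate receptor of macrophages, had 319.8, 232, 199 and 382 in dKO livers and 244, 193, 175 and 213 in controls. Here too dKO 1 and dKO 4 lay above all controls, while dKO 2 and dKO 3 lay within their range (log2 change 0.42, SE 0.19, limma adjusted p = 0.0968; 0.0238 without dKO 3). An annotated antisense transcript, Gm10602, shares exon sequence with Folr2 on the opposite strand. It had 20.2 ± 8.35 normalised read counts in dKO livers and 26.3 ± 2.89 in controls (SD, n = 4 each), and whether counting used strand is not stated in the labels.

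The growth factor receptor, the pan-macrophage marker and the transcription factor rose. Csf1r, the receptor for CSF1 and IL-34 on which macrophage survival depends, had 2683, 2476, 2284 and 3174 normalised read counts in dKO livers and 1335, 1278, 1113 and 1209.99 in controls. The lowest dKO liver stood well above the highest control. The log2 change of 1.10 had the smallest standard error of the 10 genes, 0.10 (limma adjusted p = 4.2e-06). Hmgxb3, which overlaps Csf1r on the opposite strand, had 323 ± 32.1 in dKO livers and 299.9 ± 21.9 in controls (SD, n = 4 each; limma adjusted p = 0.464).

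Adgre1 encodes F4/80, the surface antigen carried by mouse macrophages at large. It had 555, 529.8, 631 and 777 normalised read counts in dKO livers and 361, 465, 328 and 406 in controls, with no overlap (log2 change 0.67, SE 0.14, limma adjusted p = 0.00174). It was the only gene of the 10 for which dKO 1 and dKO 4 did not hold both of the highest dKO values. Spic, an ETS transcription factor induced by heme in macrophages that recycle iron, had 85.5, 50.85, 53.7 and 64.2 in dKO livers and 18.5, 27.7, 29.5 and 21.7 in controls. It did not overlap either (log2 change 1.36, SE 0.25, limma adjusted p = 0.00102), with 18 to 85 reads per liver.

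**Figure D2:**
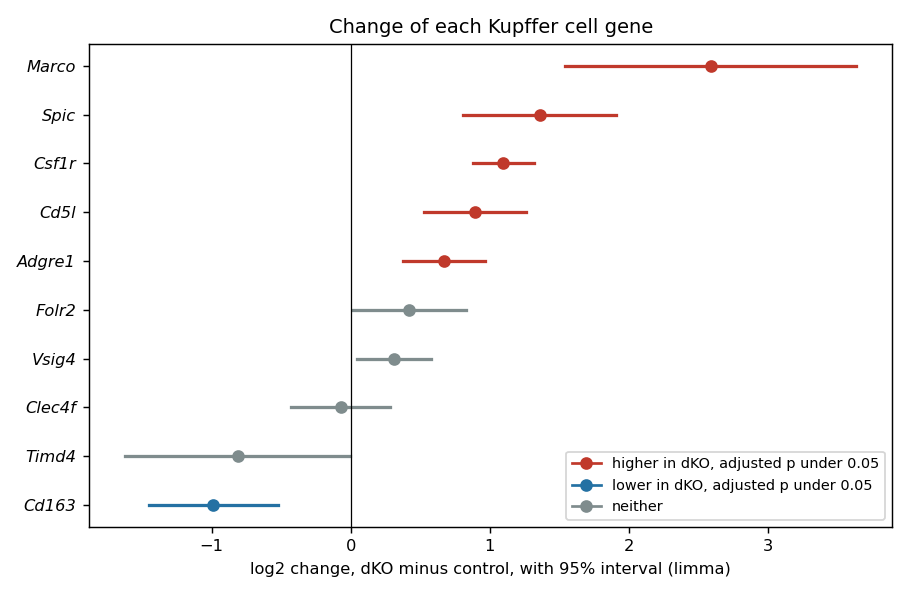
Log2 change of each gene, dKO minus control (x axis), with its 95% interval from limma, ordered from the highest to the lowest change. Marco stood at 2.59, Spic at 1.36, Csf1r at 1.10, Cd5l at 0.89 and Adgre1 at 0.67, and Cd163 at -0.99 was the only one called lower.

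Per kilobase of annotated exon, Cd5l and Clec4f led in both groups and Spic was the lowest in both. In dKO livers the order was Cd5l at 2028 ± 585 normalised read counts per kilobase, Clec4f at 868 ± 231, Marco at 486 ± 367, Csf1r at 459.7 ± 66.3 and Vsig4 at 397 ± 72.8. Adgre1 (193 ± 34.4), Folr2 (183 ± 53.7), Cd163 (43.9 ± 14.9), Timd4 (41.7 ± 25.4) and Spic (16.5 ± 4.09) followed (SD, n = 4). In controls Cd5l (1062 ± 117) and Clec4f (894 ± 116) also led, followed by Vsig4 (316 ± 23.1), Csf1r (214 ± 16.6), Folr2 (133 ± 19.3), Adgre1 (120.5 ± 18.3) and Cd163 (83.4 ± 9.92). Marco (64.6 ± 20.5), Timd4 (63.3 ± 10.6) and Spic (6.34 ± 1.33) were the lowest in controls. Marco thus ranked 3 in dKO livers and 8 in controls. The ranges of mean ± SD met between neighbours for Clec4f and Marco, Marco and Csf1r, Csf1r and Vsig4, Adgre1 and Folr2, Cd163 and Timd4, and Timd4 and Spic in dKO livers. In controls they met for Cd5l and Clec4f, Folr2 and Adgre1, Cd163 and Marco, and Marco and Timd4.

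The dKO livers differed among themselves in the same order for most of the genes. Livers dKO 1 and dKO 4 held the highest and second highest dKO values for 9 of the 10 genes, and dKO 4 was the highest for 8. Among 14132 genes with a mean of 10 or more, dKO 1 and dKO 4 were the highest dKO livers for 17.2%. The pair was taken from the values of the 10 genes themselves, so this share gives a scale and is not a test. Of 18 other Kupffer cell genes, 7 had this order, among them Fcna, the gene of ficolin A, with 651, 435, 299.8 and 829.6 normalised read counts in dKO livers and 508 to 539.7 in controls. Of 16 monocyte and recruited macrophage markers, 1 had it, and of 10 neutrophil markers 0 had it. Liver dKO 4 was the highest dKO liver for 11 of the 16 monocyte and recruited macrophage markers, and dKO 2 and dKO 3 held the highest 2 dKO values for 2 of them, against 15.7% of those 14132 genes. Liver dKO 4 was also the highest for 16 of the 18 other Kupffer cell genes and 8 of the 9 sinusoidal endothelial markers. For neutrophil markers it was the highest for 2 of 10, and for hepatocyte markers for 3 of 6. The share of all genes with dKO 4 as the highest dKO liver was not counted, so the counts for dKO 4 alone have no scale beside them. Livers dKO 1 and dKO 4 were on top for 3 of 6 hepatocyte markers and 3 of 9 sinusoidal endothelial markers. The spread of the log2 values (SD) was 0.97 in dKO livers and 0.26 in controls for Timd4, and 1.26 in dKO livers and 0.51 in controls for Marco. For Csf1r it was 0.20 in dKO livers and 0.11 in controls.

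**Figure D3:**
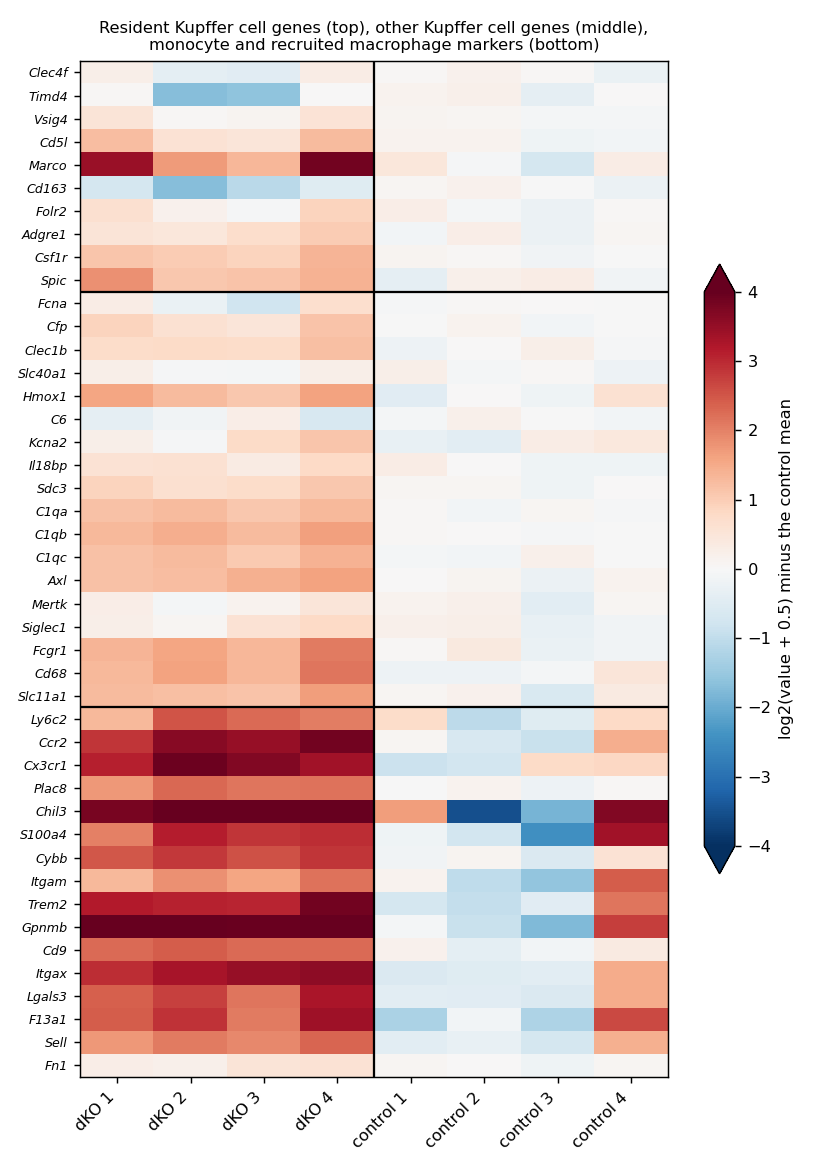
Log2(value + 0.5) minus the control mean (colour) for the 10 Kupffer cell genes, 18 other Kupffer cell genes and 16 monocyte and recruited macrophage markers (rows) in each liver (columns, dKO left of control). Timd4 was low in dKO 2 and dKO 3 only, Marco was highest in dKO 1 and dKO 4, and control 4 was above the other controls for many monocyte markers; colours end at 4 in either direction.

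Each gene was then set against Clec4f within the same liver, a ratio in which the size factor cancels. Cd5l gave 197, 189, 187 and 194 reads per 100 Clec4f reads in dKO livers and 105, 95.3, 84.9 and 109.7 in controls. The 4 dKO livers thus lay close together although their Clec4f levels differed, and the difference of the log2 ratios was 0.97 (exact permutation test over 70 assignments, 2-sided, adjusted p = 0.0367 over 9 ratios). Marco gave 50.6, 23.2, 18.4 and 64.7 reads per 100 Clec4f reads in dKO livers and 7.19, 4.65, 3.19 and 8.09 in controls. Cd163 gave 10.8, 8.16, 13.4 and 12.1 in dKO livers and 21.1, 20.6, 19.8 and 21.2 in controls, where it was the ratio with the narrowest spread.

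Of the 9 ratios, Vsig4, Cd5l, Marco, Folr2, Csf1r and Spic were higher and Cd163 lower in dKO livers with no overlap (exact permutation test, p = 0.0286 each, the smallest value that 4 livers against 4 allow, adjusted p = 0.0367). With dKO 2, dKO 3 or dKO 4 left out none of the 9 passed after adjustment (exact permutation test over 35 assignments). With dKO 1 left out Vsig4 and Folr2 no longer passed and Adgre1 did (adjusted p = 0.0429). The smallest p that 35 assignments allow is no lower, so passing rests on how many of the 9 reach it. Cd5l kept log2 differences of 0.97, 0.98 and 0.96 without dKO 2, dKO 3 and dKO 4 (exact permutation test adjusted p = 0.0514 each). With any control left out, all ratios named above as without overlap passed (adjusted p = 0.0367). With all livers kept, Vsig4 and Folr2 passed although their levels did not, with log2 differences of 0.39 and 0.49. Both turned sign with Adgre1 as the denominator, to -0.36 for Vsig4 and -0.25 for Folr2. Relative to Clec4f, Timd4 gave 5.42, 2.46, 2.74 and 5.08 reads per 100 in dKO livers and 6.60, 6.34, 4.63 and 7.64 in controls. Its groups overlapped (log2 difference -0.74, exact permutation test adjusted p = 0.0857), as did those of Adgre1 (0.74, adjusted p = 0.0643). With Adgre1 as the denominator none of the 9 ratios passed (adjusted p = 0.0857 at the lowest), and Timd4 and Cd163 were lower and Marco higher with no overlap (exact permutation test, p = 0.0286 each before adjustment).

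**Figure D4:**
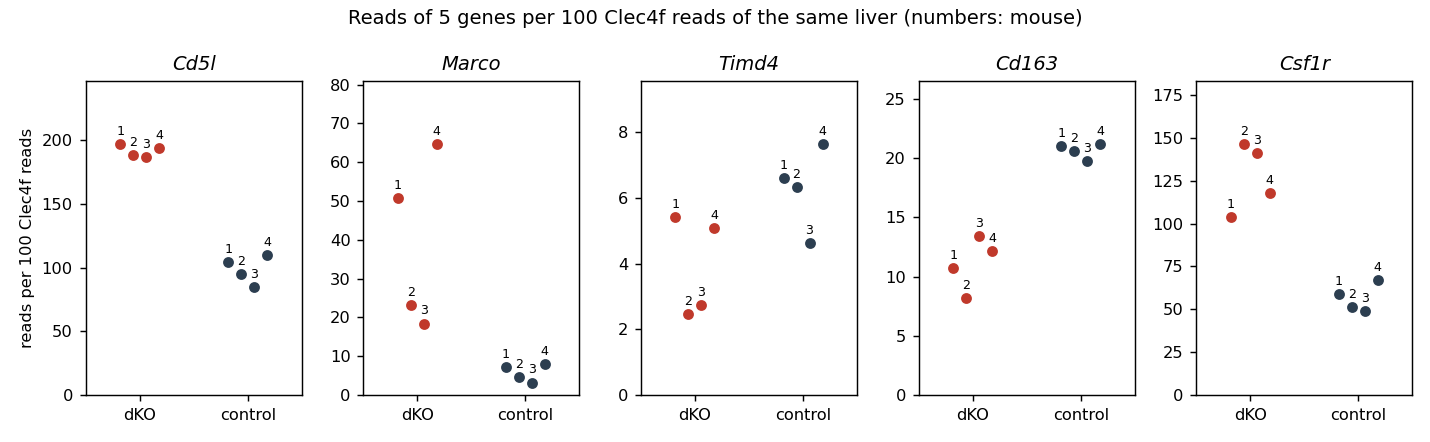
Reads of Cd5l, Marco, Timd4, Cd163 and Csf1r per 100 Clec4f reads of the same liver (y axes, from 0), for dKO and control livers with the mouse number beside each point. Cd5l lay at 187 to 197 in dKO livers and at 84.9 to 109.7 in controls, and Cd163 at 8.16 to 13.4 in dKO livers and 19.8 to 21.2 in controls.

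Other genes of Kupffer cells were examined next, from a list that had no member in common with the 10. Of 18, 12 rose, 0 fell and 6 did neither with limma (0 lower also at an unadjusted p under 0.05, by edgeR and by DESeq2), with a median log2 change of 0.85. The 6 were Fcna, Slc40a1, C6, Kcna2, Mertk and Siglec1. Resident cells and newcomers that express the same gene cannot be told apart for these 18 genes either, so the 12 do not mark resident cells alone. Without dKO 3 the complement gene C6, which hepatocytes also express, passed as lower. The complement genes C1qa, C1qb and C1qc, which encode the chains of C1q, had log2 changes of 1.20, 1.41 and 1.23 and each passed. C1qb had 2287, 2567, 2267 and 2923 normalised read counts in dKO livers, where the highest was again dKO 4, and 914 to 968 in controls (SE 0.09, limma adjusted p = 1.5e-07). Hmox1, the heme-degrading enzyme, stood at 1089 ± 190.2 in dKO livers and 426 ± 139.7 in controls, and the iron exporter gene Slc40a1 at 3535 ± 384 in dKO livers and 3331 ± 437 in controls (SD, n = 4 each). Hmox1 passed (limma adjusted p = 0.000108) and Slc40a1 did not (0.543). Fcna, given above, did not pass (limma adjusted p = 0.943). Hmox1, Slc40a1 and Fcna were chosen after their values were seen.

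Of 12 transcription factors of macrophages and Kupffer cells, 5 rose, 1 fell and 6 did neither. Spi1, which encodes PU.1, and Irf8, both needed for the myeloid lineage, rose by 1.56 each on the log2 scale, with Spi1 at 371 to 529.95 in dKO livers and 136 to 175 in controls. Zeb2 rose by 0.90 (limma adjusted p = 0.000177). Nr1h3, which encodes LXR-alpha and is also expressed by hepatocytes, stood at 1555 ± 129.7 in dKO livers and 1691 ± 10.4 in controls (SD, n = 4 each; limma adjusted p = 0.209). The factor that fell was Smad4, a mediator of TGF-beta and BMP signals, by 0.34 on the log2 scale (limma adjusted p = 0.00675).

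Of 10 genes of Kupffer cell niche signalling, 6 rose, 1 fell and 3 did neither. The 6 included Acvrl1, which encodes a receptor and not a signal (log2 change 1.35, limma adjusted p = 1.1e-05). Csf1, a ligand of the Csf1r product, had 502, 713, 682 and 669 normalised read counts in dKO livers and 137, 167, 155 and 282 in controls. Every dKO liver held more than every control, with dKO 1 the lowest dKO liver (log2 change 1.84, SE 0.20, limma adjusted p = 1.4e-05). Il34, the other ligand, had 47.3, 49.9, 34.9 and 53.1 in dKO livers and 17.5, 22.6, 46.3 and 28.6 in controls, with overlap through control 3 (limma adjusted p = 0.0704; 0.0144 without control 3). Vcam1 and Icam1, which encode adhesion molecules, and the cytokine gene Tgfb1 rose, with log2 changes of 2.10, 1.91 and 1.42. The gene that fell was Bmp10, at 9.62 ± 3.98 in dKO livers and 23.8 ± 5.91 in controls (SD, n = 4 each; limma adjusted p = 0.0157).

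Markers of other cells were examined in the same livers. Of 16 markers of monocytes and recruited macrophages, 15 rose and 0 fell with limma (0 lower also at an unadjusted p under 0.05, by edgeR and by DESeq2), with a median log2 change of 2.69. By edgeR 14 of the 16 markers were higher and by DESeq2 12, with 12 to 16 over all alternatives. Without Fn1, which hepatocytes express strongly, their summed level was 5931 to 8750.2 normalised read counts in dKO livers and 812 to 2538 in controls, with control 4 the highest and the other controls at 1076 or less. The markers Plac8, Cybb and Cd9 rose, with log2 changes of 2.08, 2.68 and 2.31. Ccr2, the receptor for monocyte chemokines, stood at 264 to 525 in dKO livers and at 38.0, 22.6, 18.9 and 99.5 in controls, with control 4 again the highest. None of the 16 markers was at 0 in a dKO liver, while Chil3 was at 0 in control 2. Their part in the rise of Csf1r, Adgre1, Spic, Marco and Cd5l was not tested. Without control 4, the same number of the 10 genes were higher (5) and lower (1).

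All 10 neutrophil markers rose with limma (0 lower, also at an unadjusted p under 0.05, by edgeR and by DESeq2). By edgeR and by DESeq2 9 of the 10 were higher, with 8 to 10 over all alternatives. Mmp9 overlapped between groups, with 97.2 in control 4 and 49.4 to 94.3 in dKO livers. The summed level of the 10 markers was 812 to 1170.5 in dKO livers and 96.5 to 467 in controls, where control 4 was the highest and the other controls were at 163 or less. Ltf, a granule protein gene, was at 0 in every control and at 16.8 to 78.4 in dKO livers, and Ngp had 1 read in the controls together. The receptor gene Csf3r rose by 2.07 on the log2 scale. Of 6 dendritic cell markers 4 rose, among them Flt3, Cd209a and Clec9a, with log2 changes of 3.08, 2.82 and 1.03, and 0 fell with limma (0 also at an unadjusted p under 0.05, by edgeR and by DESeq2). Xcr1 and Zbtb46 did not pass, with log2 changes of -0.30 and -0.07 (limma adjusted p = 0.607 and 0.726). Of 6 genes of serous cavity and capsule macrophages 3 rose (Gata6, Prg4 and Cd207) and Cxcl13 fell. Prg4 stood at 2473 ± 227 in dKO livers and 1452 ± 293 in controls (SD, n = 4 each). Whether Gata6 and Prg4 RNA came from these macrophages or from other liver cells was not tested. Alox15 and Serpinb2 did not pass (limma adjusted p = 0.338 and 0.722). Alox15 was at 0 in dKO 1, dKO 4 and control 2, and Serpinb2 was at 0 in controls 2 and 3. Both were highest in control 4, at 20.6 and 85.8, against at most 1.85 and 12.9 in dKO livers. The part of these cells in the results on the 10 genes was not tested.

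Of 9 sinusoidal endothelial markers, 3 rose, 2 fell and 4 did neither, with Stab1 and Pecam1 up by 0.60 and 0.59 and Oit3 down at -0.44 on the log2 scale. Of 6 hepatocyte markers 2 rose, 2 fell and 2 did neither. Cyp2e1 stood at 23289 ± 6603 in dKO livers and 141541 ± 19002 in controls (SD, n = 4 each), Ttr also fell, and Fgb rose by 0.55 on the log2 scale. The summed level of the hepatocyte markers was 1092150 to 1184160 in dKO livers and 1169840 to 1267320 in controls. The summed level of the 10 Kupffer cell genes was 8861 to 15218 in dKO livers and 6754 to 8116 in controls. This sum follows its most abundant genes. Means in dKO livers and controls were 4130 and 2162 for Cd5l, 2654 and 1234 for Csf1r, and 935 and 124 for Marco. For Clec4f they were 2144 and 2208, and Timd4 and Cd163 also had lower means in dKO livers.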

How the data were processed

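The deposited signal values are read counts per gene scaled by a single size factor for each library, as the values themselves show: all were whole multiples of 1 step per library within 0.001 reads, although the table is named for FPKM. The submitters' processing notes list fastp, HISAT2 2.0.5, featureCounts 1.5.0-p3, DESeq2 and mm10, with no role. For annotation and strand the setting is not stated in the labels. No column was left out. Of 22052 identifiers 21796 matched a symbol. Genes with a mean of 0.5 or more were tested on log2(value + 0.5) with limma 3.58.1 (R 4.3.3, eBayes with a trend, group alone), 2-sided, Benjamini-Hochberg over all genes, threshold 0.05, after a check on simulated data. edgeR 4.0.16 and DESeq2 1.42.0 were run on reads recovered by dividing by the step, as alternatives, beside other pseudocounts and filters, quantile normalization, robust eBayes, a replicate block and leaving out each liver. Ratios between genes of a liver were compared by exact permutation tests. The labels number the livers 1 to 4 within each group. Intervals are limma's and rest on the spread between livers; depth was 15253827 to 19299556 reads. Gene models were GENCODE M21 (GRCm38). The named genes are the 10 Kupffer cell genes, both targeted genes, from each list the called genes with the lowest adjusted p (up to 3), and Csf1, Il34, Nr1h3 and C1qb; others were chosen after their values were seen. The 10 genes and all lists were chosen with earlier results of these data known.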

Additional observations from a re-analysis of the deposited data

Results flagged for a closer look

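Among 102 groups of 4 livers examined, those of the named genes and of the ratios to Clec4f, 5 held a liver far from the other 3 of its group. Chance gives about 1 such group in 20, but these groups share livers and genes, so that share is only a scale. List genes that were not named by the rule were not examined in this way. Among them, Trem2 was 91.5 in control 4 and 10.3 to 14.7 in the other controls, and Lgals3 was 335 and 78.9 to 88.3. None of the 5 groups was of a Kupffer cell gene of the 10. Zfp36l1 was 267 in dKO 4 and 209 to 214 in the other dKO livers. Cd9 was 1477 in dKO 2 and 1323 to 1333 in the others. Zfp36l2 was 997 in control 3 and 1722 to 1820 in the other controls. Zeb2 was 366 in control 4 and 248 to 265 in the others. Ngp was 1.05 in control 3, from 1 read, and 0 in the others.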

How the results depend on the processing

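Marco, Spic, Csf1r, Cd5l and Adgre1 stayed higher and Cd163 lower, each past the threshold, in all 17 alternatives. Of the 10 genes 5 to 7 were higher over the alternatives, 5 to 7 when 1 liver was left out. The number lower was 2 in place of 1 with quantile normalization, and 1 to 2 when 1 liver was left out, through Timd4. The log2 change of Clec4f turned to 0.023 with quantile normalization, 0.029 without dKO 2 and 0.051 without dKO 3, with a range of -0.19 to 0.051 when 1 liver was left out. Relative to Adgre1 in place of Clec4f, Vsig4 turned to -0.36 and Folr2 to -0.25. With 35 assignments possible, none of the 9 ratios to Clec4f passed without dKO 2, dKO 3 or dKO 4 (exact permutation test), while without dKO 1 Cd5l, Marco, Cd163, Csf1r, Spic and also Adgre1 passed (adjusted p = 0.0429). Whether a ratio passed rested on how many of the 9 reached the smallest p that these assignments allow. Without any one control, Vsig4, Cd5l, Marco, Cd163, Folr2, Csf1r and Spic passed (exact permutation test adjusted p = 0.0367). Over all genes 4244 were higher and 3410 lower; with quantile normalization, which moved the median log2 change by -0.11, it was 3638 and 4312. The number of niche signalling genes lower became 2 with quantile normalization, and that of other Kupffer cell genes lower ranged from 0 to 1. That of endothelial markers lower ranged from 1 to 2, and that of serous cavity markers lower was 0 with edgeR, which tested 3 of them. Hepatocyte markers higher became 1 with a pseudocount of 0.1, without a filter and with the replicate block, and ranged from 1 to 2 when 1 liver was left out. Monocyte and recruited macrophage markers higher ranged from 12 to 16 over the alternatives, and neutrophil markers higher from 8 to 10. Mouse numbers name animals, and the labels do not say whether they pair them. Deviations of same-numbered livers had correlations of -0.07 to 0.08. For dKO 1, dKO 3 and dKO 4 the control with the highest correlation had the same number, and for dKO 2 it was control 3. With that replicate block 6 of the 10 genes were higher and 1 lower, Folr2 being added (limma adjusted p = 0.0336).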
